A study of Homo sapiens with 5 samples.

Results

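The genes described are 45 that build, start and feed DNA replication or drive the passage from G1 into S phase, taken from a list of symbols. The list was drawn up by role, with earlier results of these data known, so counts over it are descriptions. Of the 45, 44 had a probe set of their own among the 12165 genes on the array. CDK2, the kinase partner of cyclin E, was measured only by 3 probe sets whose annotation also names BCO2, and it gets no value. LNCaP is a human line of prostate cancer cells that respond to androgen, and the cells, kept in RPMI medium with fetal bovine serum, received either 1.25 µM celastrol or DMSO, its solvent, for 6 h. Celastrol is a triterpenoid from thunder god vine that is known for inducing the heat shock response. There were 2 celastrol arrays and 3 DMSO arrays, and the labels call those of a group biological replicates without saying how the cultures were kept apart. The p-values therefore measure the spread between these arrays.

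DNA replication begins when the origin recognition complex, CDC6 and CDT1 load the ring-shaped MCM helicase onto origins in G1. CDC7 and the cyclin E kinase then recruit CDC45 and the GINS complex, which turn the ring into a working helicase at the start of S phase. Primase, the DNA polymerases, the PCNA clamp and its RFC loader copy the strands, and ribonucleotide reductase and thymidylate synthase supply the nucleotides. Many of these genes share E2F transcription factors as regulators, so their messages tend to peak together late in G1 and in S phase. In messenger RNA from whole cultures, fewer cells in S phase and less of a message in each cell cannot be told apart.

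One array did not match its label. The array labelled DMSO replicate 3 correlated with the other 4 at 0.843 to 0.844 over all probe sets, while those 4 correlated with one another at 0.994 to 0.998. Of 11 measured markers of luminal prostate cells, 10 stood at least 2-fold lower on it than on DMSO replicates 1 and 2, and 13 of 15 leukocyte markers stood at least 2-fold higher. FOLH1, which encodes prostate-specific membrane antigen, was at 4.43 on it against 12.79 and 12.85 on the other DMSO arrays. CD79A and MS4A1, both B cell genes, were at 8.63 and 10.91 on it and no higher than 4.52 on the other 4 arrays. The median of luminal markers was 9.50 to 9.58 on those 4, and the median of leukocyte markers 4.32 to 4.44. With celastrol, 8 of the 11 luminal markers lay lower without overlap (72.7%) and 2 higher, and 5 were lower and 2 higher at an unadjusted limma p under 0.05, with 0 passing and a median change of -0.15. TMPRSS2, a protease gene induced by androgen, was at 6.36 and 6.27 against 7.38 and 7.41, a change of -1.08 (SE 0.0451, limma adjusted p = 0.0654). These shares are close to those of the replication genes given below, and the part of the luminal shift in that result was not tested. Basal and fibroblast markers had medians from 4.11 to 4.50 on all 5 arrays. Total intensity was 4939397 on DMSO replicate 3 and between 5246072 and 5348496 on the others. The comparison of celastrol with DMSO uses the 2 celastrol arrays and DMSO replicates 1 and 2, and DMSO replicate 3 is shown apart. KLK3, the gene of prostate-specific antigen, was at 10.22 and 10.07 with celastrol, at 10.89 and 10.71 on DMSO replicates 1 and 2 and at 4.56 on DMSO replicate 3. As a check of the treatment, the cochaperone gene DNAJB1 rose from 9.02 and 9.04 with DMSO to 11.25 and 11.23 with celastrol (limma adjusted p = 0.0421). HSPA1B, an inducible chaperone, and HMOX1, heme oxygenase, stood 5.15-fold and 61.4-fold higher without passing (limma adjusted p = 0.0622 for both).

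Levels are log2(intensity + 1), and a change is the mean over celastrol arrays minus the mean over DMSO replicates 1 and 2 on that scale, where the added constant makes changes of dim genes look smaller. Each gene is represented by its brightest probe set on the 4 arrays, and levels of different genes are not comparable. No replication or G1/S gene passed the threshold of 0.05 on limma's adjusted p, where 0.0164% of all genes did (2 of 12165). All values below are therefore differences that did not pass the test. Under the threshold, most of the genes lay lower with celastrol. The change was below 0 for 38 of 44 genes, against 49.9% of all genes, and the median was -0.21 against 0.00 for all genes. In 30 of 44 genes (68.2%) both celastrol arrays lay below both DMSO arrays, against 19.4% of all genes. The reverse held for 2 of the 44, ORC3 and SLBP, against 15.0% of all genes. With 2 arrays against 2, an exact permutation test of a single gene cannot go below p = 0.333.

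The unadjusted limma p was under 0.05 on the lower side for 19 of 44 genes (43.2%), against 8.80% of all genes. On the higher side it was so for 2, again ORC3 and SLBP, against 6.30% of all genes. The lower count moved with the DMSO arrays: it was 12 without DMSO replicate 1, where 11.6% of all genes met it, and 7 without DMSO replicate 2, where 10.8% did. Both DMSO arrays held the same value, within 1e-09 on the log2 scale, for 10 of the 44 genes, among them MCM4, MCM6, MCM7, RFC2 and PRIM1. Such ties, also present in 16.7% of all genes, leave no spread within DMSO. When the dimmest 40% of probe sets was left out, all 44 genes were kept and none passed, where 1.04% of the 8091 genes did. The smallest adjusted p was then 0.0595, for MCM7, and 20 genes lay lower at an unadjusted p under 0.05, against 12.5% of these brighter genes. There 30 of 44 were again lower without overlap, against 26.5%.

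**Figure D1:**
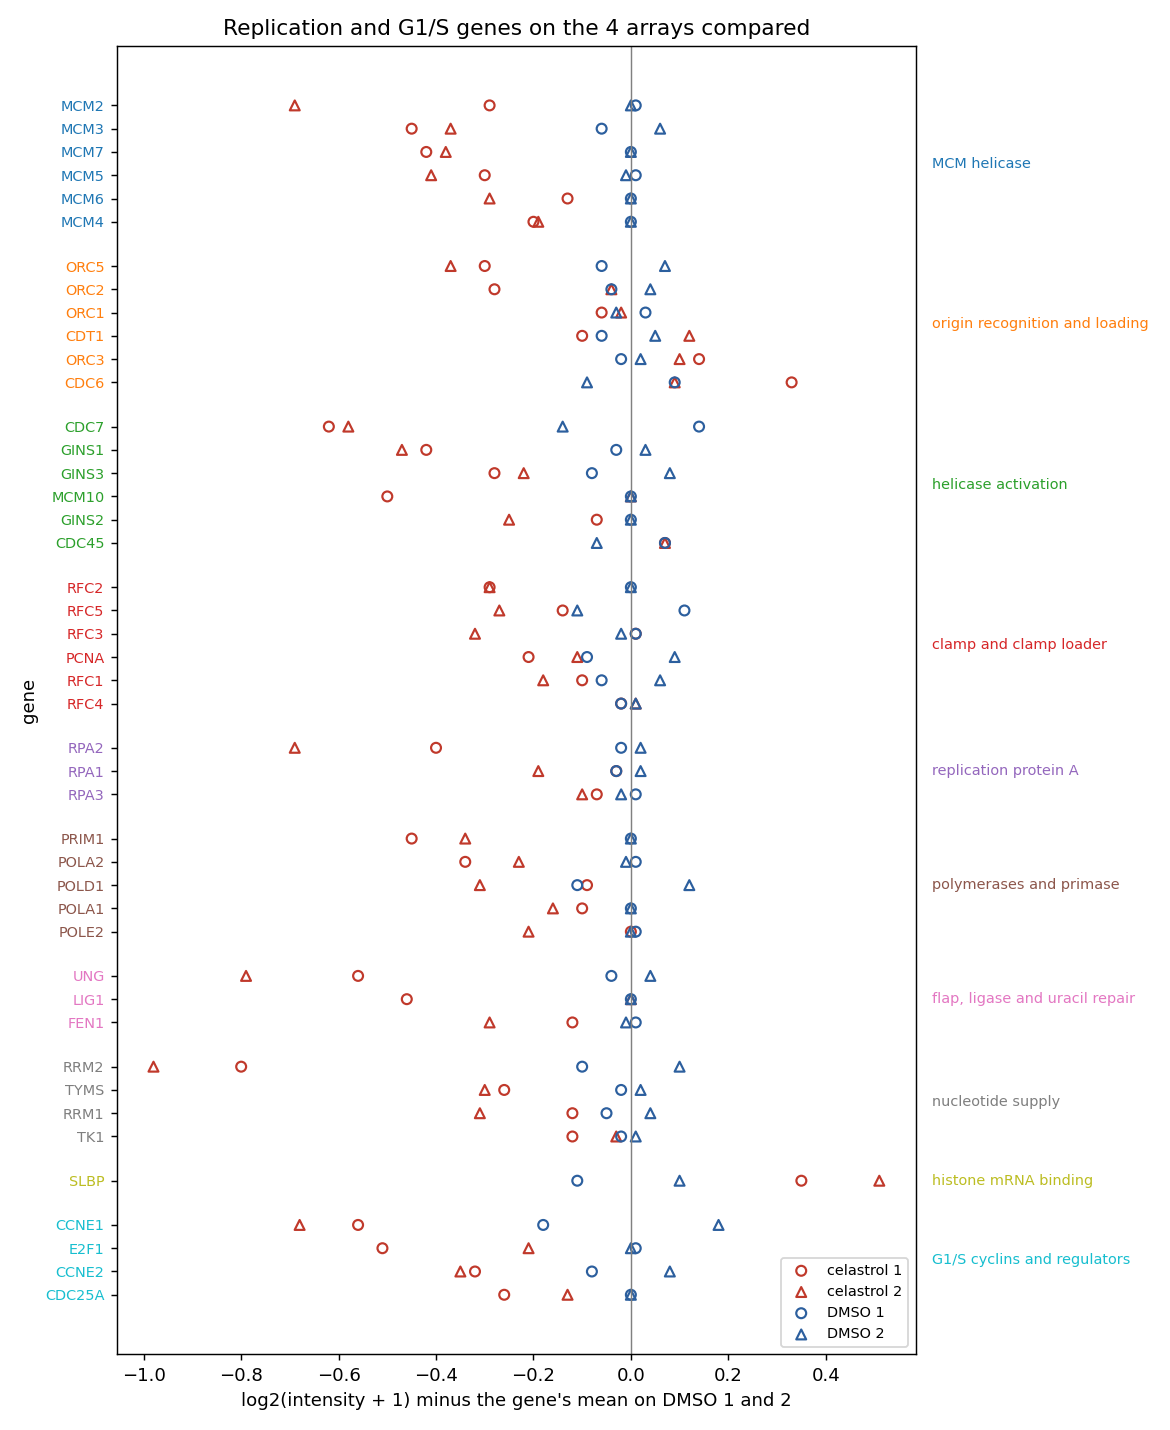
Level of each of 44 genes on the 4 arrays as log2(intensity + 1) minus the gene's mean on DMSO replicates 1 and 2 (x axis), with genes in rows grouped by role. Red symbols are celastrol arrays and blue symbols DMSO arrays, circles replicate 1 and triangles replicate 2. Red symbols lie left of both blue ones for 30 genes, and right of both for ORC3 and SLBP.

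**Figure D2:**
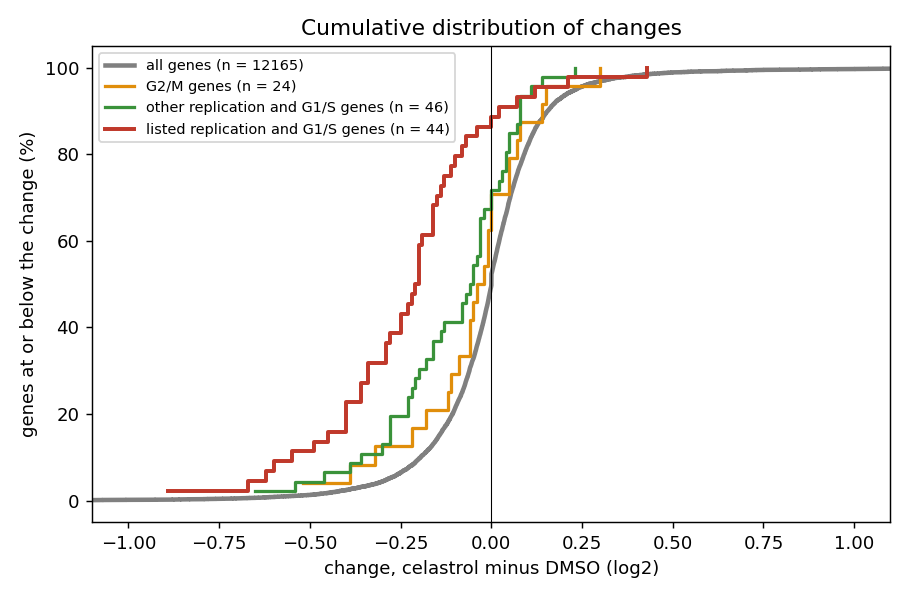
Cumulative share of genes (y axis, percent) by their change, celastrol minus DMSO in log2 units (x axis), for all 12165 genes, the 44 replication and G1/S genes, 46 other genes of the same processes and 24 G2/M genes, with the few genes of larger change beyond the axis ends not shown. The curve of the 44 genes crosses its midpoint at -0.21, and that of all genes at 0.00.

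The upstream sequences of 6 of the genes are shown because they hold, or lack, the letters that E2F and NF-Y factors are known to bind. They come from RefSeq on GRCh38.p14, are the 250 bases before the 5′-most annotated start, and run 5′ to 3′ on the strand of the gene. Capitals mark TTTCCCGC or TTTGGCGC, forms of the E2F site, and CCAAT, the NF-Y box, on either strand. The windows are chr2:135876444-135876693 (minus strand) for MCM6, chr7:100101398-100101647 (minus strand) for MCM7 and chr20:5126623-5126872 (minus strand) for PCNA. Those of E2F1, RRM2 and SLBP are chr20:33686386-33686635 (minus strand), chr2:10122318-10122567 (plus strand) and chr4:1712320-1712569 (minus strand).
MCM6: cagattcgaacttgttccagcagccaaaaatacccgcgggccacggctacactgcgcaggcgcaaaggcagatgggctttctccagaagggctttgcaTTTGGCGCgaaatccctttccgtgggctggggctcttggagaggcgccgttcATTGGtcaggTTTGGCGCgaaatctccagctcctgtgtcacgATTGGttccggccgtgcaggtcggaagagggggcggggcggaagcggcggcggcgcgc
MCM7: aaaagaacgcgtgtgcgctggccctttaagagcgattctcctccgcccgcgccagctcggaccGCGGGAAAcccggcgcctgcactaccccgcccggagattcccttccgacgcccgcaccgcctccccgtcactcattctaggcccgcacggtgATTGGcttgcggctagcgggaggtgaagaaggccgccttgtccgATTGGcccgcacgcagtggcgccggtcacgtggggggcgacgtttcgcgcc
PCNA: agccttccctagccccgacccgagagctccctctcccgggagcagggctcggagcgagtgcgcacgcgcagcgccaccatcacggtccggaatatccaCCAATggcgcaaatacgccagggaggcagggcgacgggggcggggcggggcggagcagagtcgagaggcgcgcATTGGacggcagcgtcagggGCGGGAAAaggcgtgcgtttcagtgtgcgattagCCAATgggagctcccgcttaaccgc
E2F1: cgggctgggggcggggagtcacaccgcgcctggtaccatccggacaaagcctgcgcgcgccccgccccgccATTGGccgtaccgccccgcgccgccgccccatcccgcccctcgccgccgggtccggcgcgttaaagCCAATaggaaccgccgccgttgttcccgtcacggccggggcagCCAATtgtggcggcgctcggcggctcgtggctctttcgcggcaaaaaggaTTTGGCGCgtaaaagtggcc
RRM2: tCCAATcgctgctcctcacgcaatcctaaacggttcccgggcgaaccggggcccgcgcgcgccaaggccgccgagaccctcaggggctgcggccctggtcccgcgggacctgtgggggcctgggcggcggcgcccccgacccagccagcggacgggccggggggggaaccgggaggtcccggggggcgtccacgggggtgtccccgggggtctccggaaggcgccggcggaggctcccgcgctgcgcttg
SLBP: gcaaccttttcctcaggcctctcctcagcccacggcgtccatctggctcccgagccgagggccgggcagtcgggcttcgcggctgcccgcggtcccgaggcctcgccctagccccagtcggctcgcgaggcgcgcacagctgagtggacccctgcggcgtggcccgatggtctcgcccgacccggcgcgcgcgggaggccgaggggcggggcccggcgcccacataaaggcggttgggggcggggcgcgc
MCM6 holds 2 matches to the E2F letters, MCM7, PCNA and E2F1 hold 1 each, and RRM2 and SLBP, the genes with the lowest and the highest change, hold 0 in this window. PCNA and E2F1 hold 3 CCAAT boxes each, MCM6 and MCM7 hold 2, and RRM2 holds 1. RRM2 and PCNA have 2 windows each and MCM7 has 3, from different annotated starts, and only the 5′-most was searched. A count of 0 therefore covers this window and these letters alone.

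A window was matched by symbol for 39 of the 44 genes. The E2F letters were found in 13 of these 39 (33.3%), against 2.81% of 9711 genes on the array and 1.96% of all 27305 genes with a window of this length. The 13 were CDC25A, CDT1, E2F1, GINS2, LIG1, MCM3, MCM6, MCM7, ORC3, PCNA, POLA1, RFC3 and TYMS. CCAAT, which can share at most 1 end base with these letters, was found in 20 of 39 (51.3%), against 35.6% of genes on the array. A core of the heat shock element, TTCNNGAA or GAANNTTC, was found in 3 of 39 (7.69%), against 9.57%. Windows were also found for 38 other replication and G1/S genes and 19 G2/M genes, both lists described below. The E2F letters were in 10.5% of each list. CCAAT was in 52.6% of the other replication genes and 78.9% of the G2/M genes, and the heat shock core in 7.89% and 26.3%. Genes with the E2F letters had a median change of -0.20 (n = 13) and those without -0.21 (n = 26). The medians were close, and the difference between them was not tested. A match describes letters only and says nothing of binding.

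The MCM helicase unwinds DNA ahead of the fork, and all 6 of its subunits lay lower with celastrol without overlap, with a median change of -0.38. MCM7 stood at 8.05 and 8.09 on the celastrol arrays and at 8.47 on both DMSO arrays. Its change of -0.40 (SE 0.0231), a level 1.32-fold lower, had the smallest p among the 44 genes (limma adjusted p = 0.0853). MCM4 was at 8.21 and 8.22 against 8.41 on both DMSO arrays, a change of -0.19 (SE 0.0183, limma adjusted p = 0.113). The gap was small, but both pairs of arrays were close to identical. For MCM5 the values were 7.13 and 7.02 against 7.44 and 7.42, a change of -0.36 (SE 0.0481). MCM3 was at 7.64 and 7.72 against 8.03 and 8.15, a change of -0.40 (SE 0.0617). MCM2 gave 8.18 and 7.78 against 8.48 and 8.47, a change of -0.49 (SE 0.165), so its celastrol arrays differed from each other by more than those of any other subunit. The MCM2 change was -0.69 without celastrol replicate 1 and -0.29 without celastrol replicate 2. MCM6 had a change of -0.21 (SE 0.0666). On the brightest probe sets, the changes of the 6 subunits lay between -0.49 and -0.19, so the difference was shared by the complex there and under 2-fold in each. Of the further probe sets given below, that of MCM5 overlapped, while those of MCM4 and MCM7 lay lower without overlap.

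Loading factors behaved less alike. Of 6 listed genes of the origin recognition complex and its loaders, ORC5 alone lay lower without overlap, ORC3 lay higher and 4 overlapped, and the median change was -0.01. ORC5 was at 7.02 and 6.95 with celastrol and at 7.26 and 7.39 with DMSO, a change of -0.34 (SE 0.0613, limma adjusted p = 0.203). ORC3 was at 7.41 and 7.37 against 7.25 and 7.29, a change of 0.12 (SE 0.0291). These 2 subunits of the same complex thus lay on opposite sides. CDC6, the ATPase that brings MCM to the origin, was at 6.91 and 6.67 against 6.67 and 6.49, a change of 0.21 (SE 0.124) whose groups touch, and 0.09 without celastrol replicate 1. Its second probe set was at 6.27 and 6.11 against 5.87 and 5.76, a change of 0.38 (SE 0.0825) without overlap (limma adjusted p = 0.252). CDT1, which loads MCM together with CDC6, differed by 0.02, and ran from -0.09 to 0.13 with 1 of the 4 arrays left out. ORC2 and ORC1 had changes of -0.16 and -0.04. Of the further genes counted below, ORC6, another subunit, was at 5.98 and 5.81 against 6.25 on both DMSO arrays. Its change of -0.36 (SE 0.0719, limma adjusted p = 0.225) was without overlap, while ORC4 had a change of -0.03 with overlap. CDT1 and ORC1 were dim, at 4.71 to 5.29 on the 4 arrays.

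Among factors that switch the loaded helicase on, 4 of 6 lay lower without overlap, with a median change of -0.25. GINS1, a subunit of the GINS complex, was at 7.58 and 7.53 with celastrol and at 7.97 and 8.03 with DMSO. Its change was -0.45 (SE 0.0368, limma adjusted p = 0.103), and neither pair of arrays was tied. CDC7, the kinase that phosphorylates MCM at origins, was at 5.61 and 5.65 against 6.37 and 6.09, 1.51-fold lower with a change of -0.60 (SE 0.115, limma adjusted p = 0.218). DBF4, which encodes the subunit that activates CDC7, was at 5.59 and 5.48 against 5.48 and 5.38. Its change was 0.11 (SE 0.0625, limma adjusted p = 0.622), with almost no gap between the groups. The kinase and its activator thus lay on different sides of 0, DBF4 only narrowly. GINS3 and GINS2 had changes of -0.25 and -0.16, both without overlap. GINS3 was dim, at 4.94 to 5.30 on the 4 arrays, and its change was -0.17 with 16 as the added constant. MCM10, a helicase cofactor, was at 5.26 and 5.76 against 5.76 on both DMSO arrays. Its change of -0.25 (SE 0.206) came from celastrol replicate 1 alone and was 0.00 without it. CDC45 had a change of 0.07 (SE 0.0614).

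Of 6 genes of the sliding clamp and its loader, 4 lay lower without overlap, 1 of them at an unadjusted limma p under 0.05, and the median change was -0.16. PCNA, the clamp that holds polymerases on DNA, was at 8.53 and 8.63 with celastrol and 8.65 and 8.83 with DMSO. That is a change of -0.15 (SE 0.0873, limma adjusted p = 0.622) with a narrow gap between the groups, and it was -0.06 without DMSO replicate 2. RFC2, a loader subunit, was at 6.63 on both celastrol arrays and 6.92 on both DMSO arrays, a change of -0.29 (SE 0.0182, limma adjusted p = 0.0873). RFC5 and RFC1 lay lower without overlap, with changes of -0.20 and -0.14. RFC3 had a change of -0.16 (SE 0.137) with overlap, and 0.01 without celastrol replicate 2. RFC4 was at 7.85 and 7.88 in both groups, a change of 0.00. On their brightest probe sets, the 5 loader subunits therefore ran from no measured difference to -0.29. Second probe sets of RFC5, RFC3 and RFC2 had changes of -0.35 (SE 0.0705), -0.29 (SE 0.0595) and -0.14 (SE 0.0443), all lower without overlap.

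Replication protein A coats single-stranded DNA as a complex of 3 subunits, and these differed in size. RPA2 was at 6.88 and 6.59 with celastrol against 7.26 and 7.30 with DMSO, a change of -0.55 (SE 0.121, limma adjusted p = 0.258). RPA1 and RPA3 had changes of -0.10 (SE 0.0713) and -0.08 (SE 0.0257). RPA2 was thus 1.46-fold lower and RPA3 1.06-fold.

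All 5 listed polymerase and primase genes had changes below 0, with a median of -0.20, and 3 did not overlap. PRIM1, the catalytic subunit of primase, was at 5.87 and 5.98 against 6.32 on both DMSO arrays, a change of -0.40 (SE 0.0497, limma adjusted p = 0.147). POLA2, the regulatory subunit of the polymerase that extends RNA primers, was at 6.40 and 6.51 against 6.75 and 6.73, a change of -0.29 (SE 0.0481, limma adjusted p = 0.188). POLA1, its catalytic subunit, had a change of -0.13 (SE 0.0306). The 3 listed genes of the primase and polymerase alpha complex were thus lower without overlap. PRIM2, the other primase subunit, is among the further genes counted below and had a change of -0.03 (SE 0.0348) with overlap. It was dim, at 4.46 to 4.54 on the 4 arrays. POLD1 and POLE2, of the polymerases that copy the strands, had changes of -0.20 and -0.11 and overlapped. Of the further genes counted below, POLE3 and POLD2 had changes of -0.65 (SE 0.163) and -0.14 (SE 0.0387) without overlap. POLD3 and POLD4 had changes of -0.05 (SE 0.0762) and 0.08 (SE 0.107) with overlap.

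Among genes that join Okazaki fragments or repair uracil in DNA, UNG, the glycosylase that removes uracil, showed the second lowest change of the 44 genes. It was at 6.50 and 6.27 with celastrol and 7.02 and 7.10 with DMSO, 1.59-fold lower with a change of -0.67 (SE 0.103, limma adjusted p = 0.176). FEN1, the nuclease that trims Okazaki fragments, had a change of -0.20 (SE 0.0715) without overlap. LIG1, the ligase that seals them, was at 5.27 and 5.73 against 5.73 on both DMSO arrays. Like MCM10, its change of -0.23 (SE 0.192) was 0.00 without celastrol replicate 1.

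In nucleotide supply, all 4 genes lay lower without overlap, and RRM2, the small subunit of ribonucleotide reductase, had the lowest change of the 44. RRM2 was at 9.18 and 9.0 with celastrol and 9.88 and 10.08 with DMSO. The change of -0.89 (SE 0.110, limma adjusted p = 0.146), a level 1.85-fold lower, ranked 28 from the lowest among 12165 genes. A second RRM2 probe set was at 8.69 and 8.78 against 9.70 and 9.77, a change of -1.0 (SE 0.0527, limma adjusted p = 0.0817). Both probe sets lay lower with celastrol, without overlap. RRM1, the large subunit of the same enzyme, had a change of -0.22 (SE 0.0879), so the 2 subunits of the reductase differed in size. TYMS, thymidylate synthase, was at 9.35 and 9.31 against 9.59 and 9.63, a change of -0.28 (SE 0.0312, limma adjusted p = 0.136). TK1, the thymidine salvage kinase, had a change of -0.07 (SE 0.0432).

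SLBP, which binds the stem-loop of histone messages and is needed for histone supply in S phase, stood apart from the replication enzymes. It was at 9.12 and 9.28 with celastrol and 8.66 and 8.87 with DMSO, 1.35-fold higher with a change of 0.43 (SE 0.111, limma adjusted p = 0.303). This was the highest change of the 44 genes, and 98.5% of all genes had a lower one. It ran from 0.33 to 0.54 with 1 of the 4 arrays left out.

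The 4 measured cyclins and regulators of G1/S all lay lower without overlap, with a median change of -0.35. CCNE1, cyclin E1, was at 5.01 and 4.89 with celastrol and 5.39 and 5.75 with DMSO, 1.54-fold lower with a change of -0.62 (SE 0.155, limma adjusted p = 0.290). CCNE2, cyclin E2, was at 5.58 and 5.55 against 5.82 and 5.98, a change of -0.34 (SE 0.0689, limma adjusted p = 0.230). The 2 E-type cyclins thus lay on the same side. E2F1, the activator of many of these genes, was at 4.86 and 5.16 against 5.38 and 5.37, a change of -0.36 (SE 0.125, limma adjusted p = 0.425) that was -0.21 without celastrol replicate 1. CDC25A, the phosphatase that activates CDK2, was at 6.37 and 6.50 against 6.63 on both DMSO arrays, a change of -0.20 (SE 0.0530). The second probe set of E2F1 had a change of -0.11, and that of CCNE2 -0.57. CCNE1 and E2F1 were dim, at 4.86 to 5.75 on the 4 arrays. With 16 in place of 1 as the added constant, their changes were -0.45 and -0.25.

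**Figure D3:**
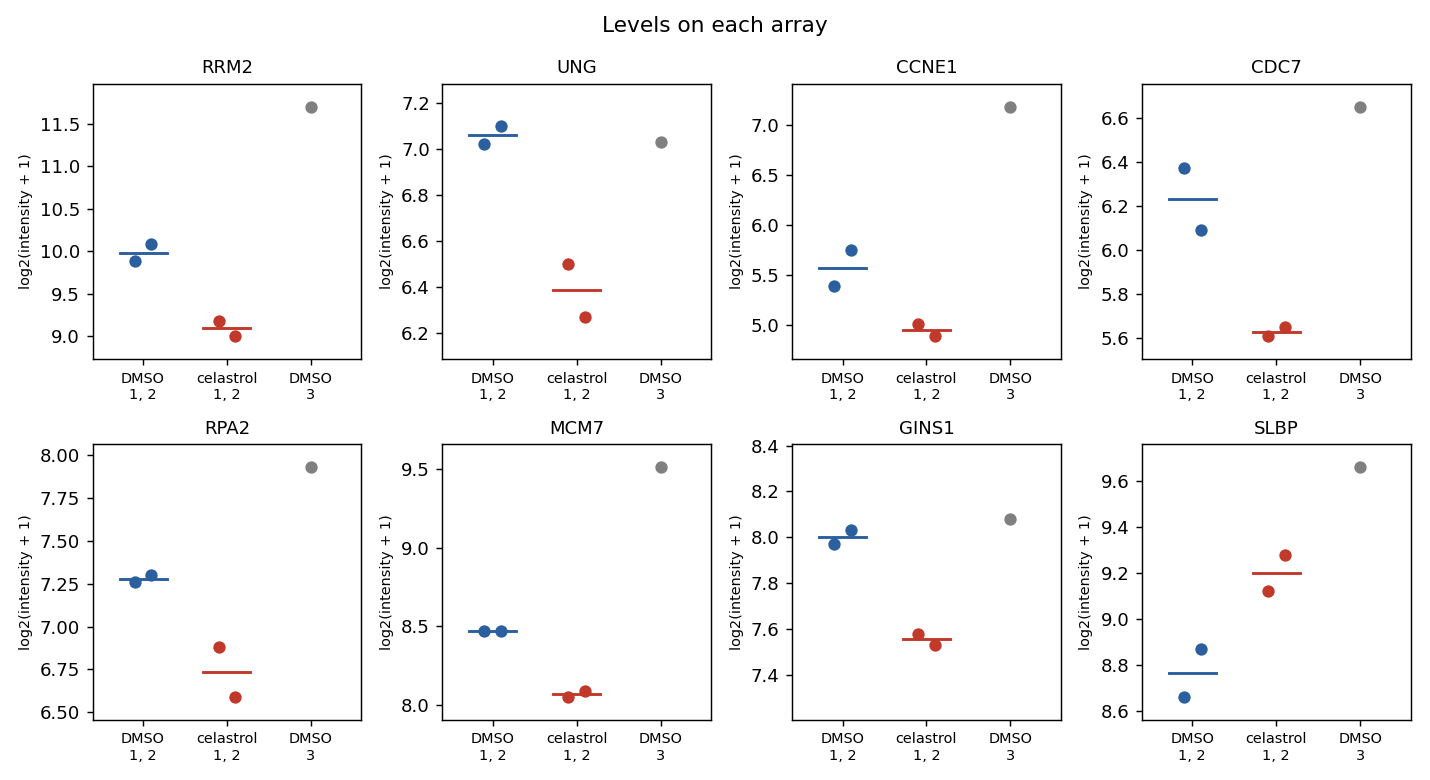
Levels as log2(intensity + 1) (y axis, scaled per panel) of RRM2, UNG, CCNE1, CDC7, RPA2, MCM7, GINS1 and SLBP on DMSO replicates 1 and 2, celastrol replicates 1 and 2 and DMSO replicate 3. Dots are arrays and bars the mean of a pair. Celastrol dots lie below those of DMSO 1 and 2 in 7 panels and above them for SLBP, while DMSO 3 lies well above for RRM2 at 11.70.

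Other probe sets of the same genes were not used to represent a gene. They were read on the same 4 arrays, so they are no independent check of the samples. There were 21 of them, for 18 genes. Of the 21, 19 had changes below 0, 13 lay lower without overlap and 20 had the sign of the gene's brightest probe set, with a median absolute gap of 0.143. By brightest probe sets, 49.9% of all genes had changes below 0 and 19.4% lay lower without overlap. The exception was CDC25A, whose dimmer probe set had a change of 0.01 (SE 0.117). MCM4 had 2 others, with changes of -0.32 and -0.26, larger than that of its brightest. MCM7 and MCM5 had smaller ones, at -0.17 (SE 0.0568, limma adjusted p = 0.406) and -0.06 (SE 0.122), and that of MCM5 overlapped. The widest gap, 0.34, was that of an ORC5 probe set that read 3.96 on all 4 arrays. Its change of -0.00 is counted above as below 0 and as having the same sign, though it shows no difference.

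**Figure D4:**
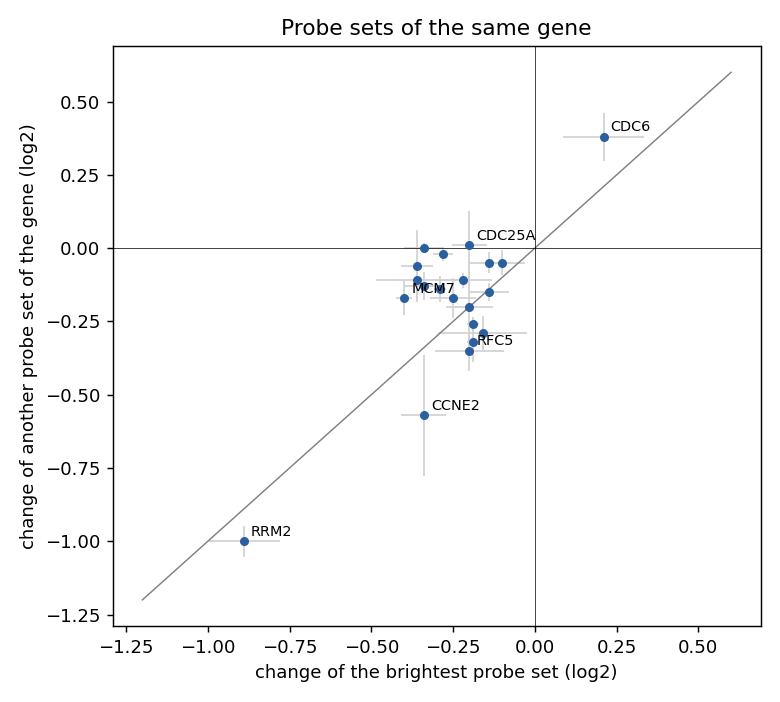
Change of each further probe set (y axis) against that of the gene's brightest probe set (x axis), both celastrol minus DMSO in log2 units. Points are 21 probe sets of 18 genes, grey bars standard errors from limma, and the line marks equality. RRM2 lies lowest on both axes, CDC6 highest, and CDC25A alone has opposite signs.

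Of 51 further genes listed for replication and G1/S, 46 were measured and 0 passed the limma test. Among these, 20 of 46 (43.5%) lay lower without overlap and 2 higher, 11 had an unadjusted limma p under 0.05 on the lower side and 0 on the higher side, and the median change was -0.06. The lowest p belonged to ASF1B, a histone chaperone of the fork, at 5.78 and 5.73 with celastrol and 6.26 and 6.33 with DMSO, a change of -0.54 (SE 0.0403, limma adjusted p = 0.0981). TIPIN, a fork protection factor, and CCNA2, cyclin A2, had changes of -0.30 (SE 0.0415) and -0.46 (SE 0.0657). On the higher side E2F3 had a change of 0.23 (SE 0.107), while E2F2 stood 0.05 above with overlap. For 24 measured G2/M genes, 7 (29.2%) lay lower without overlap and 2 higher, 5 were lower and 2 higher at an unadjusted limma p under 0.05, 0 passed, and the median change was -0.03. KIF2C, PLK1 and CDK1, all of mitosis, had changes of -0.32 (SE 0.0331), -0.18 (SE 0.0286) and -0.22 (SE 0.0380). CDC25C, TPX2 and TTK had changes of 0.30 (SE 0.0600), 0.15 (SE 0.0280) and 0.14 (SE 0.115). The difference between these lists and the 44 genes was not tested.

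On the array labelled DMSO replicate 3, most of the 44 genes stood higher than on the other DMSO arrays. It lay above both of them for 37 of 44 genes, against 40.8% of all genes, and at least 2-fold above their mean for 19 (8.29% of all genes). The median difference was 0.91, and 0 genes were 2-fold lower. The rise was not particular to these genes: 12 of 24 G2/M genes stood at least 2-fold higher, with a median difference of 0.94. For the 46 further replication and G1/S genes it was 11, with a median of 0.49. All 6 MCM subunits were among the 19, led by MCM5 at 9.58 on this array against 7.44 and 7.42. CCNE1 was at 7.18 against 5.39 and 5.75, whereas CCNE2 and RFC1 stood below both, at 5.60 and 7.35. Probe sets of a gene did not always share this: the second one of RRM2 stood 0.29 above the other DMSO arrays where the brightest stood 1.72 above, and those of RFC2 and TYMS 0.50 and 0.14 above against 1.24 and 1.16. The second TYMS probe set was dim, at 4.14 to 4.31 on the 5 arrays, where the brightest was at 9.31 to 10.77. Its small difference therefore says little. Leukocyte markers moved with these values, as given above, and their part in the result was not tested. With this array in the DMSO group, the median change of the 44 genes was -0.52 and that of RRM2 -1.46.

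**Figure D5:**
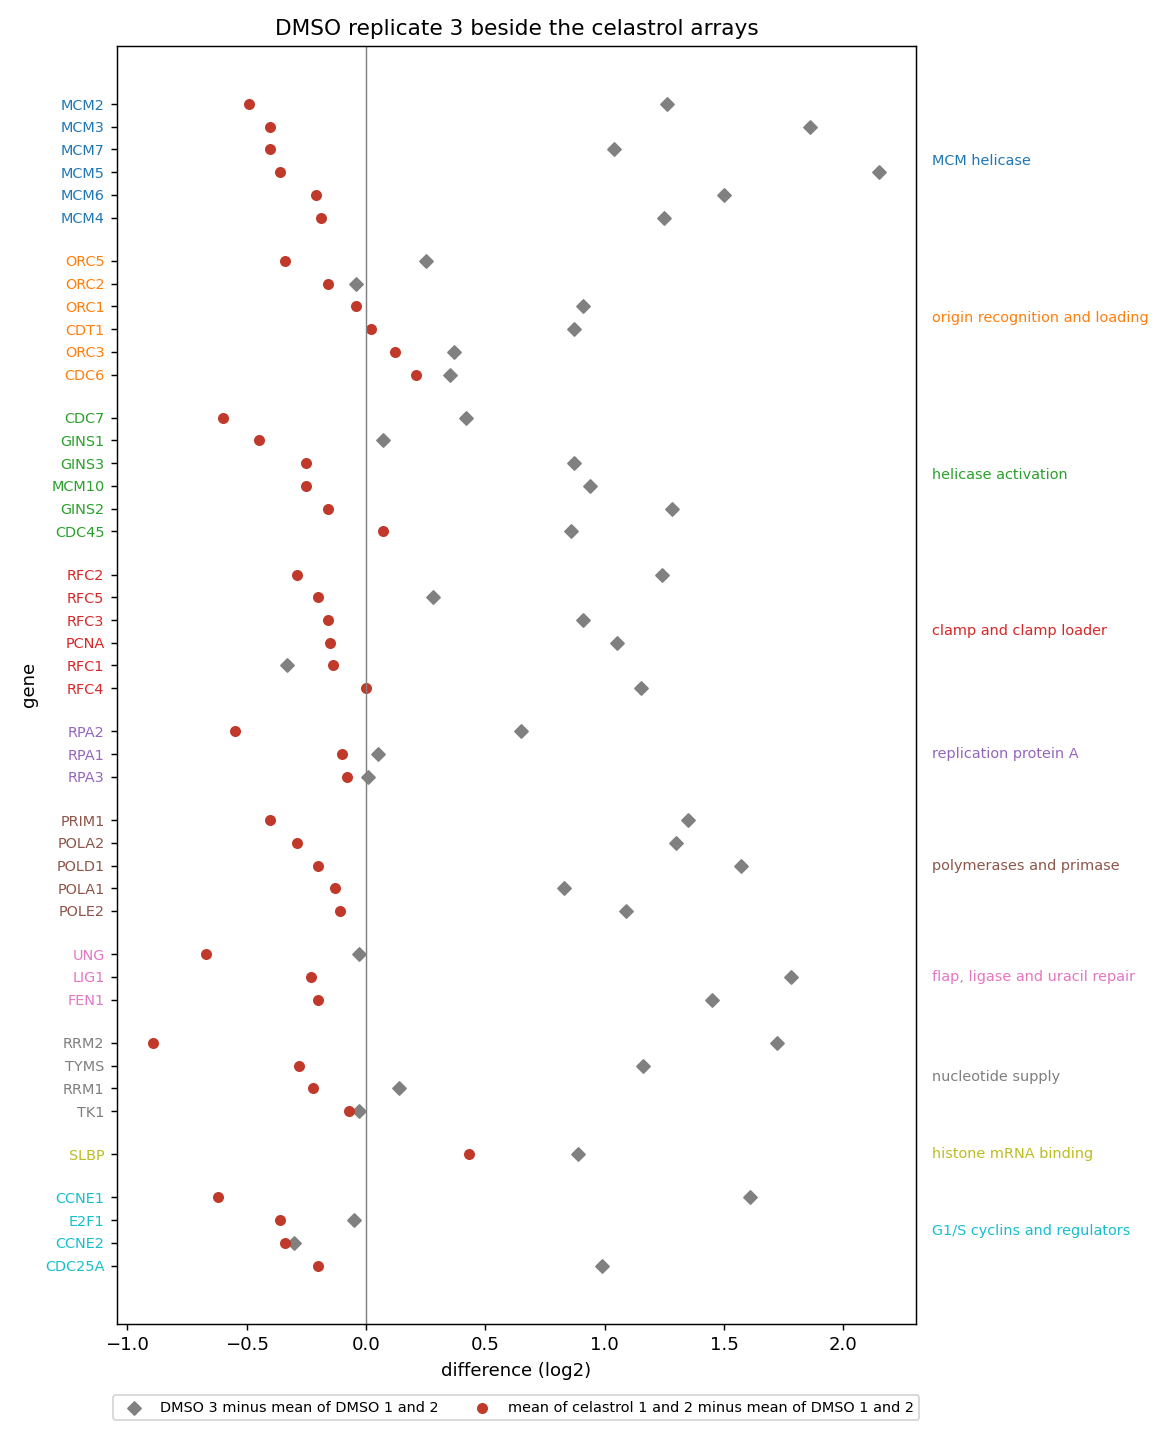
For each of 44 genes in rows, the difference from the mean of DMSO replicates 1 and 2 in log2 units (x axis) of DMSO replicate 3 (grey diamonds) and of the celastrol mean (red dots). Diamonds reach 2.15 for MCM5 and lie at or above 1 for 19 genes, while red dots lie between -0.89 and 0.43.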

How the data were processed

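RNA from LNCaP cells was hybridised to 5 Affymetrix arrays as biotinylated cRNA, per the labels' protocols. The deposited table gives 1 linear intensity per probe set and array, processed with RMA per the submitters' processing notes; its version is not given in the sources used here. All 22215 probe sets entered the test; 19724 name 1 gene, 568 several and 1923 none here. A look-up by Entrez ID changed 0 symbols. No detection call was used, so dim values have no order. The number of arrays limits precision.

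The deposited intensities were turned into log2(value + 1) and not normalized again. limma 3.58.1 in R 4.3.3 (lmFit, eBayes, two-sided) compared 2 celastrol arrays with DMSO replicates 1 and 2, and p-values were adjusted across the whole table after Benjamini and Hochberg; the code was tested on simulated data. The probe set brightest on average on these 4 arrays stands for a gene. Arrays were grouped by title and treatment protocol, since the descriptions given for the DMSO samples mention celastrol. Named with every array value are the genes with the 12 smallest p and set representatives of each role. CDC7, RPA2, TMPRSS2 and the tied genes MCM10, LIG1 and RFC4 were added after their values were seen. So were second probe sets of CDC6, RRM2, RFC2, RFC3, RFC5 and TYMS. The other lists name 3 genes a direction by p, with DBF4 among them. From the same lists, PRIM2, ORC4, ORC6, POLE3, POLD2, POLD3 and POLD4 were added after their values were seen. Members and lists were chosen with earlier results of these data known, and motif letters and windows after the values were seen. Alternatives covered arrays, filter, normalization, pseudocount, variance model, replicate block and probe set choice.

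Same-numbered arrays were not treated as pairs: across 22215 probe sets, replicate differences within celastrol and within DMSO had a correlation of r = -0.0197.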

Additional observations from a re-analysis of the deposited data

Results flagged for a closer look

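DMSO replicate 3 was left out of the comparison, and 19 of the 44 genes stood at least 2-fold higher on it than the mean of DMSO replicates 1 and 2. The same held for 8.29% of all genes and for 12 of 24 G2/M genes. Among the 44, the log2 differences were led by MCM5 at 2.15, MCM3 at 1.86, LIG1 at 1.78, RRM2 at 1.72, CCNE1 at 1.61, POLD1 at 1.57 and MCM6 at 1.50. Next came FEN1 at 1.45, PRIM1 at 1.35, POLA2 at 1.30, GINS2 at 1.28, MCM2 at 1.26 and MCM4 at 1.25. The others were RFC2 at 1.24, TYMS at 1.16, RFC4 at 1.15, POLE2 at 1.09, PCNA at 1.05 and MCM7 at 1.04. Second probe sets stood only 0.29 higher for RRM2, 0.50 for RFC2 and 0.14 for TYMS, whose second probe set was dim at 4.14 to 4.31. No replicate of this array exists among the 5, so these differences have no test, and their source was not tested.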

How the results depend on the processing

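No replication or G1/S gene passed limma's adjusted threshold under any of 13 fits, so a setting could only move the other values. The number of all genes that passed was 2, but 84 when the 40% of probe sets that were dimmest were dropped, 125 after quantile normalization, 92 after median centring, 29 with log2(value + 16), 1 with a variance trend, 1 with a robust trend, 0 with all 5 arrays and 0 with any of the 4 arrays left out, with 1 residual degree of freedom. With the replicate number as a block it was 0, and 17 of the 44 genes then lay lower at an unadjusted p under 0.05, against 7.75% of all genes. That count was 19 in the comparison as reported, 6 with all 5 arrays (1.34% of all genes) and 7 to 20 with 1 of the 4 left out. The count lower without overlap was 28 with all 5 arrays, where 8.1% of all genes met it, 33 to 35 with 1 array left out, where 30.5% to 32.2% did, 29 after quantile normalization (27.4%) and 28 after median centring (16.8%). The median change was -0.25 to -0.18 under all settings but that with all 5 arrays, where it was -0.52. With all 5 arrays ORC3, CDT1, CDC45 and RFC4 turned to -0.01, -0.27, -0.21 and -0.38, as DMSO replicate 3 is high for them. With 1 array left out, CDT1 ran from -0.09 to 0.13, RFC4 from -0.01 to 0.02, RFC3 from -0.32 to 0.01, MCM10 from -0.50 to 0.00 and LIG1 from -0.47 to 0.00. CDC45 ran from 0.00 to 0.14. Of the other genes, 16 moved by over 1.5 times without reaching 0, among them GINS2 from -0.26 to -0.07, RFC5 from -0.31 to -0.10, POLD1 from -0.32 to -0.08 and RRM1 from -0.31 to -0.12. All 44 genes kept their sign after quantile normalization, median centring, with log2(value + 16) and with either other choice of probe set; the filter, variance models and block leave each change as it is.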
